A study of Mus musculus with 4 samples.

Results

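The genes described here are 37 mouse genes of DNA replication and nucleotide supply, taken from a list of names. That list was chosen with earlier results of these data known. The genes were found by symbol after the RPKM values (mapped reads scaled by transcript length and by the size of the library) of each gene's transcripts had been summed. All 37 were matched among 23521 genes, and all 37 had a mean of at least 1 RPKM over the libraries and entered the test. By role they fall into 8 subgroups: 5 licensing genes, 6 subunits of the MCM helicase, 6 genes of helicase activation, 6 polymerase and primase genes, 6 genes of the clamp and its loader, 2 of Okazaki fragment maturation, 5 of deoxynucleotide (dNTP) supply, and Slbp.

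The study compared Hepa1-6 cells, a mouse hepatoma line, that carried lentivirus with a scrambled shRNA (Control, 2 libraries) or with an shRNA against the chromatin remodeler Chd1 (Chd1KD, 2 libraries). Both groups were grown in DMEM with 10% serum, infected, held under puromycin at 4 μg/ml for 3 weeks and then lysed, and poly(A) RNA was sequenced. The labels call the Control cells wild type and do not say whether the replicates were separate infections or how many Chd1 shRNAs were used. The p-values therefore reflect the spread of these libraries alone, and that spread may be technical. RPKM keeps no read counts, and the depth of the libraries is unknown.

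Before a cell copies its DNA, the origin recognition complex with Cdc6 and Cdt1 loads rings of Mcm2 to Mcm7 onto chromatin, a step called licensing that geminin (Gmnn) restrains. In S phase Cdc45, the GINS complex and Mcm10 turn the rings into active helicases, primase and polymerase alpha lay down primers, and polymerases delta and epsilon extend them on a sliding clamp of PCNA. Most of these genes are known targets of E2F transcription factors and are expressed in cells that divide, hepatoma cells among them.

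Chd1 itself measured 21.4 and 22.5 RPKM in Control and 10.4 and 11.3 in Chd1KD. It fell by 0.96 on the log2(RPKM + 1) scale (SE 0.07; adjusted p = 0.0125 by limma), and over the alternatives the adjusted p ran from 0.00036 to 0.250, the last without a filter on low RPKM. Summed RPKM was highest in Control replicate 1, at 484490, against 462332 in Control replicate 2. It was 466950 and 459381 in Chd1KD replicates 1 and 2. Of 10 hepatocyte and hepatoma markers, 7 had a mean of at least 1 RPKM, among them Afp, Hnf4a, Foxa2 and Krt18. Afp, the fetal liver protein, had a ratio of 1.63 (limma, adjusted p = 0.0773). Ratios were 0.783 for Hnf4a and 0.872 for Foxa2, both liver transcription factors, and 0.839 for the keratin gene Krt18 (limma, unadjusted p = 0.00466, 0.0221 and 0.00331). These ratios are as far from 1 as those of many replication genes, and their part in the results was not tested. Ttr and Serpina1a were listed at 0 in every library and Apoa1 stayed under 1 RPKM. All 11 markers of leukocytes, endothelium and fibroblasts had a mean under 1 RPKM, and 7 of them were listed at 0 in every library.

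Most of the replication genes had lower mRNA levels in Chd1KD, by modest amounts. The fold change was negative for 34 of the 37 genes, with a median of -0.17 on the log2(RPKM + 1) scale, where the median of all 10209 tested genes was -0.02 and 56.5% were negative. The groups did not overlap, with both Chd1KD libraries below both Control libraries, for 29 of the 37 genes, a state found in 30.5% of all tested genes. Both Chd1KD libraries lay above both Control libraries for Prim2 alone of the 37, against 21.3% of all tested genes. In 7 genes the groups overlapped. Because whole cultures were measured, fewer cells in S phase and less mRNA per cell cannot be told apart for any gene described here.

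No replication gene passed the test over all genes. With limma and Benjamini-Hochberg adjustment over the 10209 genes, 47 genes (0.460%) had an adjusted p under 0.05 and none of the 37 was among them. The lowest adjusted p of a replication gene was 0.0757. At an unadjusted p under 0.05, 18 of the 37 were lower in Chd1KD and 1 was higher. Among all tested genes 11.3% and 7.24% did so. The ratio of mean RPKM, Chd1KD over Control, was at most 0.85 for 13 genes, above 0.85 and at most 0.95 for 18, above 0.95 but below that of Prim2 for 5, and 1.25 for Prim2.

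**Figure D1:**
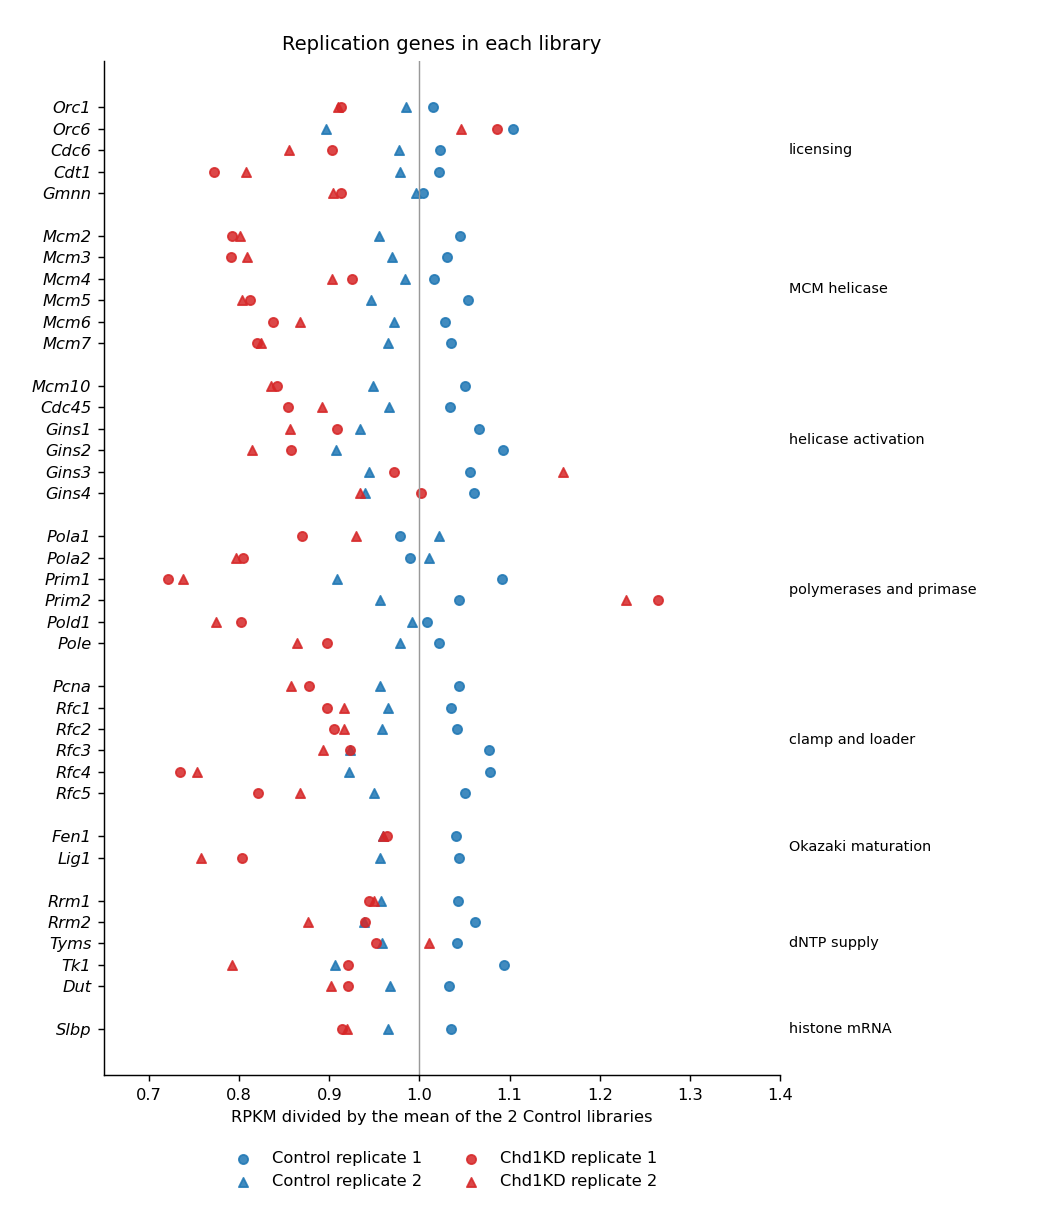
RPKM of each replication gene in each of the 4 libraries, divided by the mean of the 2 Control libraries (horizontal axis, ratio); circles are replicate 1 and triangles replicate 2. Control replicate 2 lay below Control replicate 1 for 35 of the 37 genes, and both Chd1KD libraries lay below both Control libraries for 29.

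The Control libraries themselves differed in these genes. Control replicate 2 was below Control replicate 1 for 35 of the 37, where 59.3% of all tested genes were. The median difference was -0.12 on the log2(RPKM + 1) scale, against -0.03 for all tested genes. In the 82 further pathway genes described below it was -0.07, with 60 lower in Control replicate 2. In the 18 mitotic genes it was -0.09, with 16 lower there. Between the Chd1KD libraries the median difference of the 37 was -0.01. For 27 of the 37 genes, and for 1962 of the 10209 tested genes, Control replicate 2 was below Control replicate 1 and above the higher Chd1KD library. Set against Control replicate 1, the medians of the 37 were -0.22 in Chd1KD replicate 1 and -0.24 in Chd1KD replicate 2. Set against Control replicate 2, they were -0.11 and -0.13. In the same order, the medians of all tested genes were -0.033, -0.037, -0.005 and -0.009. The group difference was larger than the difference between the Control libraries for 26 of the 37 genes and for 49.5% of all tested genes.

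Control replicate 1 also stood apart in Alb and Actb, which are outside these genes. Alb, the liver albumin gene, measured 18.6 RPKM there, 55.6 in Control replicate 2, and 42.2 and 53.0 in the Chd1KD libraries. Actb, a cytoskeletal actin, was highest there, at 2005 RPKM against 1788 in Control replicate 2 and 1817 and 1771 in Chd1KD. Its log2 fold change was -0.08 and turned to 0.0049 without that library. In Gapdh, a glycolytic enzyme, Control replicate 1 did not stand apart. Gapdh measured 1238.3 and 1219.5 RPKM in Control and 1105.7 and 1036.7 in Chd1KD. Its ratio was 0.872 (limma, unadjusted p = 0.019), near the median ratio of 0.880 of the replication genes. Tbp, a basal transcription factor, had a ratio of 0.981, and its sign turned when either replicate 1 was left out. The part of these differences in the results was not tested.

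Replication genes were called when Control replicate 2 was left out. Without it, 236 of the 10209 genes (2.31%) had an adjusted p under 0.05 (limma), and 10 of the 37 were among them, all lower in Chd1KD. These were Cdt1, Gins2, Lig1, Mcm2, Mcm3, Mcm5, Mcm7, Pold1, Prim1 and Rfc4. In that fit the lone Control library is assumed to vary like the Chd1KD pair. None of the 37 was called when any of the other libraries was left out. Log2 fold changes moved by more than 1.5 times, or changed sign, for 15 of the 37 genes without Control replicate 1 and for 11 without Control replicate 2, against 3 and 5 without the Chd1KD replicates 1 and 2.

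**Figure D2:**
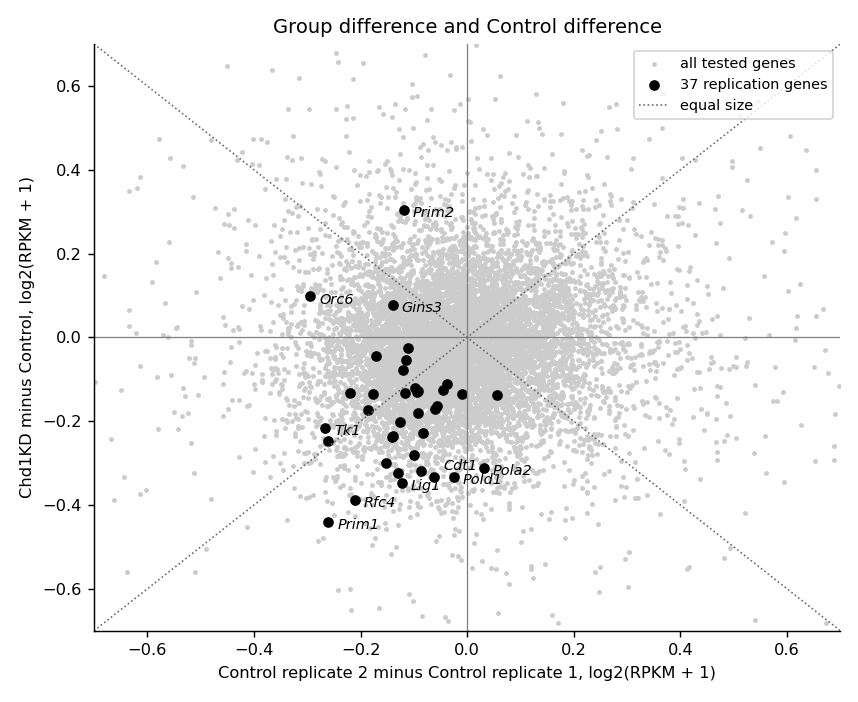
Group difference (vertical axis, Chd1KD minus Control) against the difference between the Control libraries (horizontal axis, replicate 2 minus replicate 1), both on log2(RPKM + 1), for the 37 replication genes (black) and all tested genes within the axis limits (grey). Most black points lie left of and below 0, and Pold1, Cdt1 and Pola2 combine a group difference near -0.3 with Control libraries that differ by less than 0.07.

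Promoter windows show which short sequence elements stand beside the genes. They are from RefSeq on GRCm38.p6, run from 250 bases before the annotated start to 50 after it, and cover 29 of the 37 genes. Gmnn, Mcm4, Gins1, Gins2, Gins4, Prim2, Pole and Rfc2 have no entry in the table used. The windows below belong to Pold1 and Cdt1, the genes of lowest p, and to Pcna, the gene of highest RPKM among the 37. Capitals mark matches on either strand to the E2F-type letters TTTCCCGC, TTTGGCGC, TTTCGCGC or TTTGCCGC, to CCAAT (the core of NF-Y sites) or to TTTGAA (the core of a cell cycle homology region). The Pold1 window is chr7:44548766-44549065 on the minus strand, the Cdt1 window chr8:122567765-122568064 on the plus strand, and the Pcna window chr2:132253131-132253430 on the minus strand.
Pold1: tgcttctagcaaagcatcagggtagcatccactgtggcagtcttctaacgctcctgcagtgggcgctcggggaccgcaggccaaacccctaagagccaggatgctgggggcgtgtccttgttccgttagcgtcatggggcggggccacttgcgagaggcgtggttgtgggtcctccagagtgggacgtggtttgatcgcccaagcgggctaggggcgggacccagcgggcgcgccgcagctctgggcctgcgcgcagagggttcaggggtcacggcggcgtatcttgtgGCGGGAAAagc
Cdt1: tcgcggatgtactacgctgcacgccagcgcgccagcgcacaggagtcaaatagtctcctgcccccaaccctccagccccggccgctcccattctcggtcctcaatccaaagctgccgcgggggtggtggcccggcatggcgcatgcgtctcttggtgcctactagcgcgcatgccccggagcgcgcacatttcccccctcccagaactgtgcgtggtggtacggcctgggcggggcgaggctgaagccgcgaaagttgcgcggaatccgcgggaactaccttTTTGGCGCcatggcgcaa
Pcna: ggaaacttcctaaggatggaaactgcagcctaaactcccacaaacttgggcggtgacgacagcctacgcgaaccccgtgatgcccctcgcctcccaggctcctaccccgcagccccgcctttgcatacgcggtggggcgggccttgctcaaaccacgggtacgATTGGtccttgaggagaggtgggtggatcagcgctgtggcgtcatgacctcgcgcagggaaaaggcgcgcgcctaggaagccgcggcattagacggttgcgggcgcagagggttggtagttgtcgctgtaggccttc
The Pold1 match reads GCGGGAAA, the reverse complement of TTTCCCGC, and begins 39 bases after the start base. The Cdt1 match reads TTTGGCGC and begins 32 bases after the start base. The Pcna match reads ATTGG, the reverse complement of CCAAT, and begins 87 bases before the start base.

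An E2F-type match of these letters was present for 12 of the 29 genes with a window (41.4%), against 2.60% of all 27025 genes in the table and 5.15% of the 8202 tested genes with a window. CCAAT was present for 18 of the 29 (62.1%) and for 43.4% of the tested genes, and TTTGAA for 4 (13.8%) and 14.1%. The 12 genes with an E2F-type match were Orc1, Cdc6, Cdt1, Mcm3, Mcm5, Mcm6, Mcm7, Gins3, Pola1, Pold1, Rfc3 and Lig1. Their median log2 fold change was -0.25, with 11 of 12 negative, and that of the 17 genes without one was -0.18, with 16 of 17 negative. The fold changes ran from -0.35 to 0.08 with a match and from -0.44 to 0.10 without one. For CCAAT the order of the medians was the opposite, -0.16 in the 18 genes with a match and -0.24 in the 11 without. These matches describe the letters of the window and are not measured binding sites.

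Among the licensing genes, Cdt1 had the lowest ratio and the lowest p. Cdt1 (chromosome 8, 122568015 to 122573130 on mm10) brings the MCM ring to the origin and is destroyed once S phase begins. It measured 49.98 and 47.8 RPKM in Control and 37.7 and 39.5 in Chd1KD. Both Chd1KD libraries were well below both Control libraries. The log2 fold change was -0.33 (SE 0.06; adjusted p = 0.0802 by limma, unadjusted p = 0.000946). Cdc6, the ATPase that recruits Cdt1, measured 13.05 and 12.5 RPKM in Control and 11.5 and 10.9 in Chd1KD (a log2 fold change of -0.17, SE 0.07; adjusted p = 0.246 by limma).

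Gmnn encodes geminin, which binds Cdt1 and blocks new licensing. It measured 57.8 and 57.4 RPKM in Control and 52.6 and 52.1 in Chd1KD, so its libraries nearly coincided within each group. The ratio of means was 0.909, smaller in distance from 1 than the 0.790 of Cdt1. The Gmnn to Cdt1 ratio of RPKM was 1.16 and 1.20 in Control and 1.395 and 1.32 in Chd1KD, higher in both Chd1KD libraries.

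Of the origin recognition subunits, Orc1, the ATPase of the complex, had the lowest RPKM of the 37 genes, at 5.25 and 5.09 RPKM in Control and 4.72 and 4.699 in Chd1KD (limma, unadjusted p = 0.18). Orc6, the smallest subunit, measured 50.1 and 40.7 RPKM in Control and 49.3 and 47.5 in Chd1KD. Its Chd1KD values lay between the Control values, and its log2 fold change of 0.10 turned to -0.049 without Control replicate 2. Over the 5 licensing genes the summed RPKM was 176.2 and 163.5 in Control and 155.9 and 154.7 in Chd1KD.

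All 6 subunits of the MCM2-7 ring had lower RPKM in both Chd1KD libraries than in either Control library. Among all tested genes 30.5% were lower in this way. The summed RPKM of the 6 was 600.8 and 560.1 in Control and 474.6 and 480.4 in Chd1KD, a ratio of means of 0.823. All but Mcm4 had an unadjusted p under 0.05 (limma), where 11.3% of all tested genes were lower at that level.

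Mcm3 measured 129.8 and 122.2 RPKM in Control and 99.6 and 101.9 in Chd1KD. Its log2 fold change was -0.32 (SE 0.06; adjusted p = 0.0833 by limma). Mcm2, the subunit that also carries histones, measured 95.7 and 87.4 RPKM in Control and 72.5 and 73.4 in Chd1KD. Its log2 fold change was -0.32 (SE 0.06; adjusted p = 0.0927 by limma). In both genes the gap between groups was wider than the gap between the Control libraries. Mcm7 (178.6 and 166.6, then 141.4 and 142.2 RPKM) had a ratio of means of 0.822 and Mcm5 (57.5 and 51.6, then 44.3 and 43.8 RPKM) of 0.807. Mcm6, at 104.4 and 98.6 RPKM in Control and 85.1 and 88.1 in Chd1KD, had a ratio of 0.853. In the NCBI annotation, Mcm7 overlaps the miRNA genes Mir25, Mir93 and Mir106b and the coding gene Ap4m1.

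Mcm4 had the lowest RPKM of the 6 and the ratio nearest to 1. It measured 34.9 and 33.7 RPKM in Control and 31.7 and 30.98 in Chd1KD, a ratio of 0.914 (limma, unadjusted p = 0.0678). As a share of the summed RPKM of the ring it was 5.80% and 6.02% in Control and 6.68% and 6.45% in Chd1KD. The share of Mcm7 was between 29.6% and 29.8% in every library. Per length, the order of levels was Mcm7, Mcm3, Mcm6, Mcm2, Mcm5 and Mcm4 in all 4 libraries, and neighbours in that order did not overlap within either group.

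**Figure D3:**
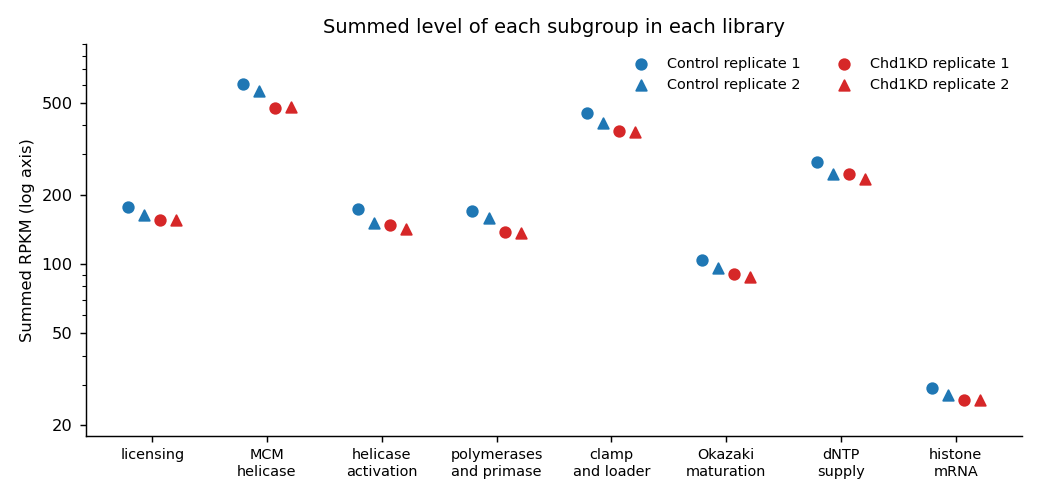
Summed RPKM (log axis) of the genes of each subgroup in each of the 4 libraries; circles are replicate 1 and triangles replicate 2. Both Chd1KD points lie below both Control points in all 8 subgroups, with the MCM helicase at 474.6 and 480.4 against 600.8 and 560.1.

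Of the 6 genes of helicase activation, 3 were lower at an unadjusted p under 0.05 (limma), against 11.3% of all tested genes. Mcm10, which helps the 2 helicases of an origin to part and start, measured 16.4 and 14.9 RPKM in Control and 13.2 and 13.1 in Chd1KD (a log2 fold change of -0.23, SE 0.07; adjusted p = 0.168 by limma). Cdc45, the helicase cofactor, measured 14.3 and 13.3 RPKM in Control and 11.8 and 12.3 in Chd1KD, a ratio of 0.873 (limma, unadjusted p = 0.0336). In both genes the groups did not overlap.

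The 4 GINS subunits, which form 1 complex with Cdc45 and the MCM ring, differed in sign. Gins2 measured 47.7 and 39.6 RPKM in Control and 37.4 and 35.5 in Chd1KD (a log2 fold change of -0.25, SE 0.09; adjusted p = 0.229 by limma), and its Control libraries differed by as much as the groups did. The Gins2 value was -0.12 without Control replicate 1 and -0.38 without Control replicate 2. Gins1 had a ratio of 0.882 (limma, unadjusted p = 0.0636). Gins4, at 47.5 and 42.1 RPKM in Control and 44.9 and 41.9 in Chd1KD, overlapped between groups. Gins3, the least abundant of the 4 per length, measured 6.45 and 5.76 RPKM in Control and 5.93 and 7.08 in Chd1KD and also overlapped. The log2 fold change of Gins4 changed sign without Control replicate 1 and without Chd1KD replicate 2, and that of Gins3 without Chd1KD replicate 2.

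The primase subunits had opposite signs. Primase is a heterodimer of Prim1, which joins the ribonucleotides, and Prim2, which starts the primer and hands it to polymerase alpha. Prim1 (chromosome 10, 128015215 to 128030030) measured 62.3 and 51.8 RPKM in Control and 41.1 and 42.1 in Chd1KD. Its ratio of means, 0.729, was the lowest of the 37 genes (limma, adjusted p = 0.0965). Prim2 (chromosome 1, 33453808 to 33669808) measured 19.8 and 18.1 RPKM in Control and 23.97 and 23.3 in Chd1KD. Its ratio of means was 1.25 (limma, adjusted p = 0.104).

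The groups did not overlap for either primase gene. The ratio of Prim2 to Prim1 RPKM was 0.317 and 0.350 in Control and 0.583 and 0.553 in Chd1KD, 1.70 times as high in Chd1KD as a ratio of means. Leaving out each library in turn gave log2 fold changes from 0.25 to 0.36 for Prim2 and from -0.57 to -0.31 for Prim1. Each gene is represented by 1 transcript row. Prim2 overlaps the annotated loci Gm17813 and Gm29228, and whether strand was used in the quantification is not stated in the labels.

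**Figure D4:**
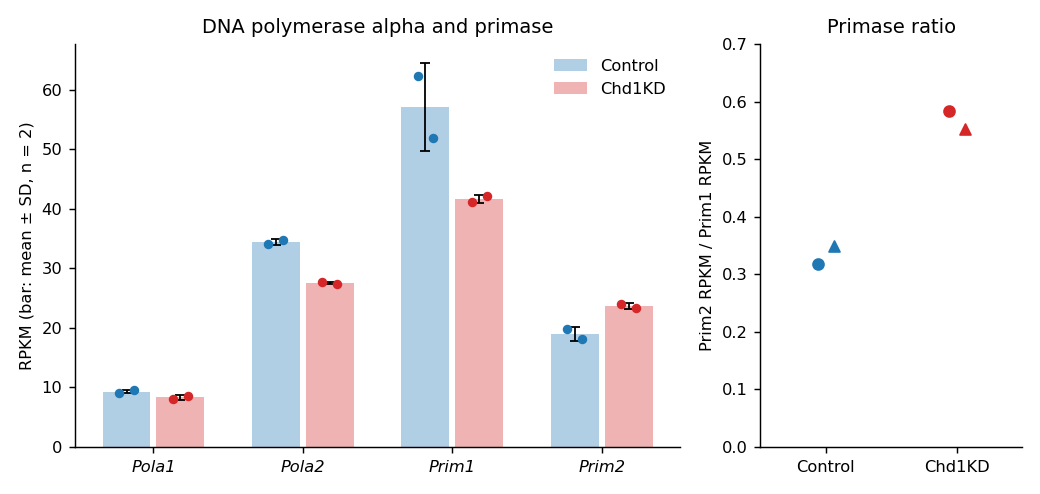
Left, RPKM of the 4 subunits of the polymerase alpha and primase complex (bars, mean ± SD of 2 libraries; points, libraries); right, Prim2 RPKM divided by Prim1 RPKM in each library. Prim1 is lower and Prim2 higher in both Chd1KD libraries, and the ratio goes from 0.317 and 0.350 in Control to 0.583 and 0.553 in Chd1KD.

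Pold1 and Pola2 had the lowest p of the polymerase and primase genes. Pold1 (chromosome 7, 44532744 to 44548815) encodes the catalytic subunit of polymerase delta, which copies the lagging strand, and had the lowest p of the 37 genes. Its libraries stood at 35.8 and 35.2 RPKM in Control and 28.5 and 27.5 in Chd1KD (a log2 fold change of -0.33, SE 0.06; adjusted p = 0.0757 by limma). Pola2, the accessory subunit of polymerase alpha, stood at 34.1 and 34.8 RPKM in Control and 27.7 and 27.4 in Chd1KD (a log2 fold change of -0.31, SE 0.06; adjusted p = 0.0811 by limma). In both genes the libraries of a group lay within 1 RPKM of each other, and the groups stood apart by more than 6 RPKM. The catalytic subunits Pola1, of polymerase alpha, and Pole, of polymerase epsilon on the leading strand, had ratios of 0.899 and 0.880 and unadjusted p of 0.0957 and 0.0507 (limma).

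Pcna, the sliding clamp that tethers polymerases to DNA, measured 245.9 and 225.3 RPKM in Control and 206.7 and 201.98 in Chd1KD. Its ratio of means was 0.867 (limma, adjusted p = 0.178), and the groups did not overlap. Its level per length was the highest of the 37 in both groups.

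The 5 subunits of replication factor C, the complex that opens PCNA and loads it, were all lower in both Chd1KD libraries. Both Chd1KD libraries lay below both Control libraries in 30.5% of all tested genes. Rfc4 had 13.5 and 11.6 RPKM in Control and 9.22 and 9.45 in Chd1KD, a ratio of 0.744 (a log2 fold change of -0.39, SE 0.09; adjusted p = 0.105 by limma). Rfc5 measured 52.5 and 47.5 RPKM in Control and 41.1 and 43.4 in Chd1KD, a ratio of 0.844 (limma, unadjusted p = 0.0121). The other 3 had smaller differences, with ratios of 0.907 for the large subunit Rfc1, 0.910 for Rfc2 and 0.908 for Rfc3 and none at an unadjusted p under 0.05 (limma). Rfc3 separated the groups only narrowly, with 59.99 RPKM in Control replicate 2 and 59.97 in Chd1KD replicate 1. Rfc4 overlaps the coding gene Eif4a2 in the annotation.

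Of the genes that finish lagging-strand fragments, Lig1, the ligase that seals the nicks, measured 40.9 and 37.5 RPKM in Control and 31.5 and 29.7 in Chd1KD (a log2 fold change of -0.35, SE 0.07; adjusted p = 0.0912 by limma). Fen1, the nuclease that trims the flaps, measured 63.5 and 58.5 RPKM in Control and 58.8 and 58.5 in Chd1KD. The Fen1 groups overlapped, and its log2 fold change of -0.05 was 0.0035 without Control replicate 1.

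None of the 5 dNTP supply genes reached an unadjusted p under 0.05 (limma). Among all tested genes 11.3% were lower and 7.24% higher at that level. Rrm1, the large subunit of ribonucleotide reductase, measured 74.7 and 68.7 RPKM in Control and 67.7 and 68.1 in Chd1KD. Rrm2, the small subunit that limits the enzyme outside S phase, measured 100.7 and 88.9 RPKM in Control and 89.1 and 83.0 in Chd1KD. For both, Control replicate 2 sat next to the Chd1KD libraries and Control replicate 1 above them. The Rrm2 to Rrm1 ratio of RPKM was 1.35 and 1.295 in Control and 1.32 and 1.22 in Chd1KD, with overlap.

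Tk1, the thymidine kinase of the salvage route, measured 48.0 and 39.8 RPKM in Control and 40.4 and 34.8 in Chd1KD (a log2 fold change of -0.22, SE 0.11; adjusted p = 0.333 by limma). It ranged from -0.083 without Control replicate 1 to -0.35 without Control replicate 2, and was -0.11 without Chd1KD replicate 2. Tyms, which makes thymidylate from deoxyuridylate, measured 13.5 and 12.4 RPKM in Control and 12.3 and 13.1 in Chd1KD. Neither separated the groups. Dut, which removes dUTP, had a ratio of 0.912 with groups that did not overlap (limma, unadjusted p = 0.0742). Slbp, which binds the stem-loop of histone mRNAs and so links histone supply to replication, measured 29.1 and 27.1 RPKM in Control and 25.7 and 25.8 in Chd1KD (limma, unadjusted p = 0.0979).

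**Figure D5:**
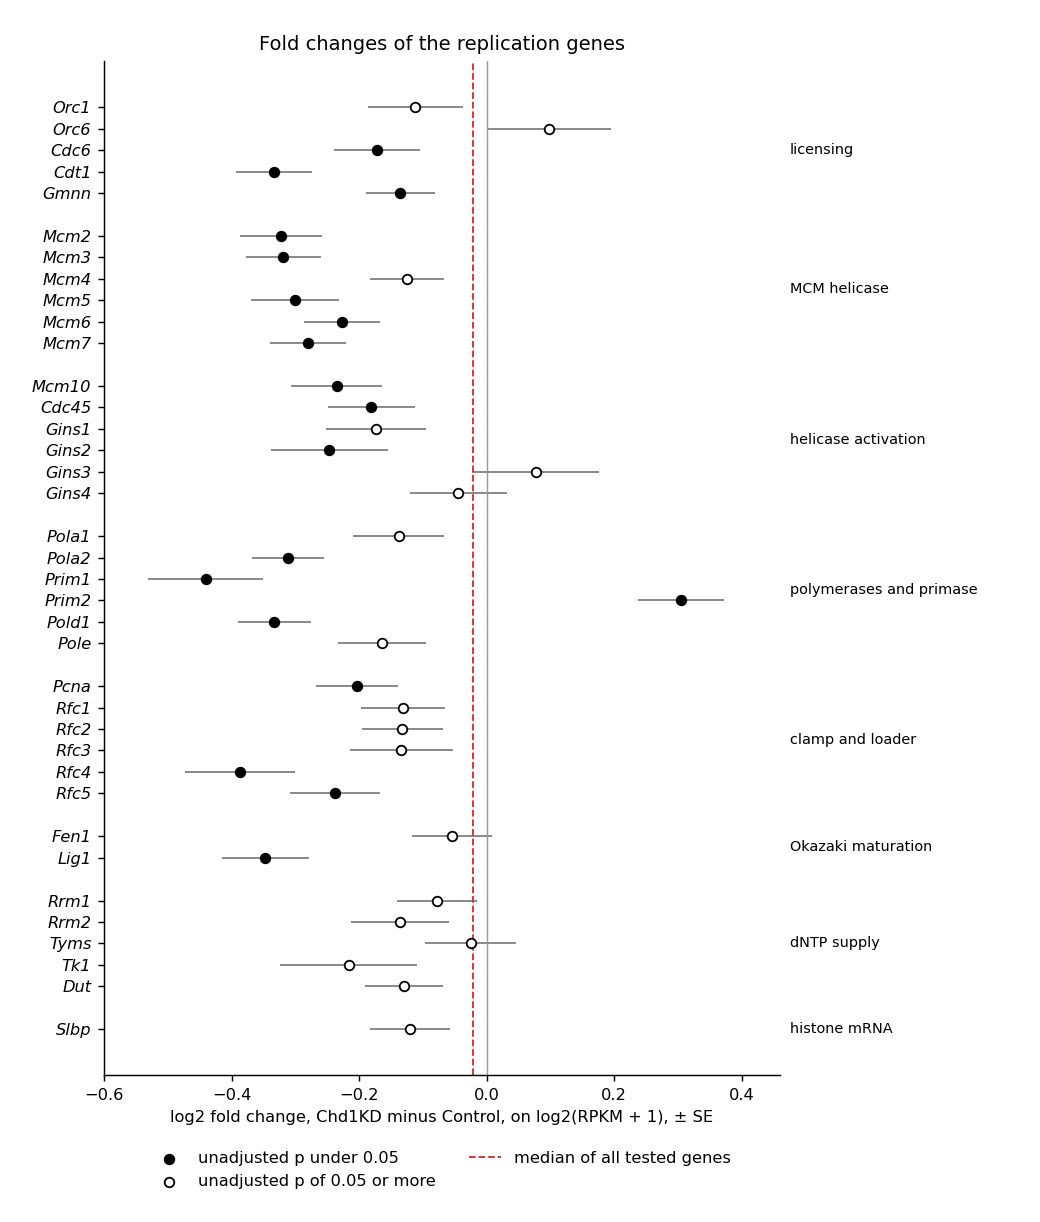
Log2 fold change (Chd1KD minus Control, log2(RPKM + 1) scale) with its SE for each replication gene by subgroup; filled points have an unadjusted p under 0.05, open points do not, and the dashed line is the median of all tested genes at -0.02. The fold changes run from -0.44 for Prim1 to 0.30 for Prim2, with the dNTP supply genes all open.

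Further genes of the pathway, 83 on 6 lists, were read in the same fit. Of the 82 tested, 62 were negative, the median fold change was -0.09, and 20 were lower and 3 higher at an unadjusted p under 0.05, shares to be read against 11.3% and 7.24% of all tested genes. Skp2 and Timeless passed over all genes (limma).

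Skp2, a ubiquitin ligase subunit that targets p27 and also Cdt1, fell from 36.9 and 35.2 RPKM to 19.8 and 19.8 RPKM (a log2 fold change of -0.83, SE 0.06; adjusted p = 0.0125 by limma). Over the alternatives its adjusted p ran from 0.0013 to 0.250, the last without the filter on low values. In the same list Cul4b, a scaffold of the other Cdt1 ligase, and the cyclins Ccne1 and Ccne2, which drive entry into S phase, had ratios of 1.23, 1.17 and 1.18. Each had an unadjusted p under 0.05 and none passed over all genes. Of the 13 tested genes of that list, 4 were lower and 3 higher at an unadjusted p under 0.05 (limma). Among all tested genes 11.3% were lower and 7.24% higher.

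Among fork protection genes, Timeless fell from 16.5 and 15.2 RPKM to 9.66 and 10.4 RPKM (a log2 fold change of -0.61, SE 0.07; adjusted p = 0.0384 by limma). Over the alternatives the adjusted p ran from 0.0098 to 0.250; it was 0.250 without the filter and 0.0765 without the variance trend, both at the same fold change. With its most abundant transcript the log2 fold change was -1.02 and the adjusted p 0.0909 (limma). Tipin, the partner of Timeless, measured 46.5 and 41.6 RPKM in Control and 33.4 and 32.6 in Chd1KD, a ratio of 0.749 (limma, adjusted p = 0.0757). Chek1, the checkpoint kinase, had a ratio of 0.843. All 5 tested genes of this list had a negative fold change, where 56.5% of all tested genes did. At an unadjusted p under 0.05 (limma) 3 of them were lower, against 11.3% of all tested genes. In 2 of the 5 the groups overlapped.

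In the list of other polymerase subunits, single-strand binding proteins and loaders, 15 of 17 genes had a negative fold change. The fold change was positive for 2, and 56.5% of all tested genes were negative. At an unadjusted p under 0.05 (limma) 6 were lower, against 11.3% of all tested genes. Dscc1 and Chtf18, of the alternative clamp loader that acts with cohesion, had ratios of 0.705 and 0.792. Pold2, the second subunit of polymerase delta, had 0.835, and Rpa3, the smallest subunit of replication protein A, 0.807.

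Of 15 other origin and kinase genes, 2 were lower at an unadjusted p under 0.05 (limma), a share near the 11.3% of all tested genes. These were the helicase Recql4 (ratio 0.756) and the firing factor Mtbp (0.880). Over the 24 further nucleotide supply genes the median was -0.05 on the log2 scale, and among them the mitochondrial kinase Dguok had a ratio of 0.797 (limma, unadjusted p = 0.00532). Of 8 histone supply genes 3 were lower at an unadjusted p under 0.05, Chaf1b (0.828), Nasp (0.873) and Asf1b (0.889), which are histone chaperones. None of these lists held a gene called over all genes (limma).

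Mitotic genes offer a comparison with another part of the cycle. Of 18 tested, 17 were negative, where 56.5% of all tested genes were, and the median was -0.09. At an unadjusted p under 0.05 (limma), 4 were lower (22.2%), against 48.6% of the 37 replication genes and 11.3% of all tested genes. These 4 were Nusap1, Plk1, Aurkb and Ndc80, with ratios of 0.811, 0.848, 0.841 and 0.788. Mki67, the common proliferation marker, measured 77.7 and 76.3 RPKM in Control and 75.8 and 78.03 in Chd1KD and overlapped between groups. The difference between the replication and mitotic genes was not tested.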

How the data were processed

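Poly(A) RNA of Hepa1-6 cells was sequenced in 2 Control and 2 Chd1KD libraries, grouped by their titles. The authors deposited RPKM for 30582 RefSeq transcript rows, per the file headers. The mm10 build, with TopHat 1.4.1 and also Cufflinks 1.3.0, is listed in the submitters' processing notes. The annotation release, the strand setting and any filters were not given in the sources used here. Single-library files held the same values as the series table.

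The NCBI table for GRCm38.p6 named 29999 rows and GENCODE M21 184 more, and RPKM was summed per gene. Coordinates are from the NCBI table. The 10209 genes that averaged 1 RPKM or more were compared on log2(RPKM + 1) by limma 3.58.1 (R 4.3.3), using a variance trend but no block; the script was checked on simulated data. Fold changes on this scale understate low genes. A gene was called at a Benjamini-Hochberg adjusted p below 0.05. An exact permutation test of 2 against 2 cannot go below p = 0.333 and was not used.

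RPKM holds no counts, so no interval or floor is given. Low values gave no usable read unit: among 794 transcripts above 0 and under 0.2 RPKM in every library, at most 7.81% shared 1 ratio to Control replicate 1. Members and lists were chosen with earlier results of these data known. All 37 members are named, and from the other lists at most 4 genes by smallest p. The result of 1 gene that this rule names is not reported here. Mki67, Alb, Ttr, Serpina1a and Apoa1 are outside that rule and were picked with their values known. Of the 37, 8 overlap another coding gene (Lig1, Mcm7, Rfc4, Gins2, Cdc45, Tk1, Orc1 and Fen1), whose reads may be shared. Alternatives covered pseudocount, filter, scaling, variance model, replicate block, transcript choice and each library left out. Figures used matplotlib 3.10.9.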

Additional observations from a re-analysis of the deposited data

How the results depend on the processing

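The median log2 fold change of the 37 genes stayed negative in all 13 alternatives, from -0.23 to -0.13. With every library kept, the number of the 37 lower at an unadjusted p under 0.05 (limma) ran from 16 with median-ratio scaling to 25 with a replicate block. The share of all tested genes lower at that level moved too, from 9.35% to 16.04% in the same 2 settings. The number of the 37 higher was 1 in each setting with every library kept. The number of genes called (47) was 0 without a filter (limma, with 2153 of 13783 at an unadjusted p under 0.05), 71 at a mean of at least 5 RPKM, where 36 of the 37 were tested, 6 without a variance trend, 92 with a robust trend and 12 with the most abundant transcript. With libraries left out it ran from 49 to 236, and the number of the 37 called from 0 to 10. Nothing in the labels pairs the replicate numbers. Over all tested genes the replicate differences of the groups correlated at r = 0.22 across genes, which are not independent replicates. With a replicate block 325 of 10209 genes and 10 of the 37 were called, 9 lower and Prim2 higher, and 8 of these 10 were also called without Control replicate 2. With libraries left out, log2 fold changes that changed sign ran from -0.049 to 0.24 for Orc6, -0.033 to 0.19 for Gins3, -0.13 to 0.041 for Gins4, -0.11 to 0.0035 for Fen1, -0.081 to 0.030 for Tyms, -0.16 to 0.0049 for Actb and -0.11 to 0.053 for Tbp. Tyms was at 0.025 with its most abundant transcript, which leaves out a noncoding row. The cause of the other changes was not tested. Depth is unknown, so how far it limits these values is unknown too.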

Other observations

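Of the 37 genes, 27 were represented by 1 transcript row and 10 by several, and rows of 1 gene did not always point the same way. The division of reads between overlapping transcripts is an estimate by the authors' software, and none of these rows was tested. Fen1 had 3 rows. The most abundant one measured 38.4 and 36.4 RPKM in Control and 33.9 and 33.8 in Chd1KD, and the second 19.2 and 17.3 RPKM in Control and 20.4 and 19.9 in Chd1KD. Both rows separated the groups, in opposite directions, while the summed Fen1 level overlapped. For Cdc45 the main row measured 12.004 and 10.5 RPKM in Control and 9.61 and 8.74 in Chd1KD, and the minor row 2.26 and 2.82 in Control and 2.17 and 3.57 in Chd1KD. For Orc6 the main row measured 46.4 and 35.4 RPKM in Control and 43.8 and 40.2 in Chd1KD, and a minor row 3.55 and 5.18 in Control and 5.12 and 7.14 in Chd1KD. Gins1 had a minor row of 9.55 and 5.52 RPKM in Control and 8.74 and 4.72 in Chd1KD, so that replicate 2 was the lower one in each group. The noncoding row of Tyms measured 1.82 and 1.12 RPKM in Control and 1.069 and 0.921 in Chd1KD, and the coding row 11.7 and 11.3 in Control and 11.3 and 12.2 in Chd1KD.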
